A study of Homo sapiens with 24 samples.

Results

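The comparison described here is the effect of STM2457 on the transcriptome of U87-R, a temozolomide-resistant derivative of the human glioblastoma line U87 MG. Its members are 6 of the 24 RNA-seq libraries of the study, chosen by their labels: 3 of U87-R cells given 50 µM STM2457 for 96 h and 3 of U87-R cells given an equivalent volume of the solvent DMSO. The medium of all 6 was EMEM, supplemented with 10% serum and 50 µM temozolomide, so the DNA-alkylating drug was present in both groups. The contrast is therefore the effect of STM2457 in the presence of temozolomide. A change that STM2457 makes to the response to temozolomide is part of it and cannot be told apart. The study set out to examine the role of m6A methylation of mRNA in temozolomide resistance of glioma lines. The same STM2457 and DMSO treatments, with 3 libraries each, were given to parental U87 MG cells, for whose EMEM medium the labels list no temozolomide, and to LN229-R, a resistant derivative of the glioblastoma line LN229 kept in DMEM that also held 50 µM temozolomide. All media contained penicillin and streptomycin. Libraries labelled LN229, the parental line of LN229-R, had the same treatments with no temozolomide listed. They were used only as an alternative to LN229-R. Whether U87-R is 1 clone is not given in the sources used here.

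N6-methyladenosine (m6A) is the most abundant internal mark of mRNA. A complex with METTL3 as its catalytic subunit and METTL14 as its partner writes it, reader proteins of the YTH family recognise it and often speed the decay of the transcript, and FTO and ALKBH5 can remove it. STM2457 is a small molecule that occupies the cofactor pocket of METTL3. Most m6A lies in long exons and near stop codons, because exon junction complexes keep the writer away from short internal exons. Methylation itself was not measured here: every value is an amount of RNA.

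Values are normalized counts deposited by the authors, and changes are differences of log2(value + 1) between STM2457 and DMSO with their standard error (SE). A gene was said to rise or fall when its adjusted p was under 0.05 (limma, Benjamini-Hochberg over all genes tested). Library totals of normalized counts ran from 21232924 to 23739927. The libraries of a group correlated at 0.966 to 0.979 over genes, and libraries of different groups at 0.944 to 0.962. The labels do not say that replicates came from separate cultures, so the p-values may measure only technical spread. The labelled origin was checked against markers: VIM, the intermediate filament of mesenchymal and glial cells, stood at 98433, 105584 and 108915 in DMSO and at 94854, 107778 and 108143 with STM2457, and the adhesion receptor CD44 at 23301 ± 2547 and 25255 ± 1163 (SD, n = 3). GFAP, the astrocyte filament, was near 0, at 6.86 ± 5.67 and 3.11 ± 3.66 (SD, n = 3). S100B, a glial calcium-binding protein, was near 0 too, at 9.17 in DMSO replicate 2 and lower in every other U87-R library. As VIM is also mesenchymal and both GFAP and S100B were near 0, these markers do not settle a glial origin.

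Of 16185 genes tested, 2373 changed (14.7%). There were 1370 that rose (8.46%) and 1003 that fell (6.2%), and the median change of all genes was -0.00. The 3 values of one group lay wholly above or below those of the other for 5714 genes (35.3%). With the replicate number as a block, which the like-numbered libraries of U87-R warranted, 2545 genes rose and 2251 fell, and all 2373 genes remained among them. List counts below are to be read beside the 8.46% and 6.2% of all genes. Those given with the block are to be read beside the 2545 rises and 2251 falls of 16185. The count rested on several libraries: 884 genes passed without STM2457 replicate 2, 1142 without DMSO replicate 2, 1361 without DMSO replicate 1 and 1500 without STM2457 replicate 1. With no trend of the variance on the mean in the model, 798 genes rose and 574 fell.

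RNA of the targeted enzyme did not pass the test. METTL3 stood at 736, 776 and 884 in DMSO and at 781, 889 and 989 with STM2457, a change of 0.15 (SE 0.13, adjusted p = 0.498). The groups overlapped, and as the compound acts on the protein, the RNA level is no check of inhibition. METTL14 changed by 0.10 (SE 0.21, adjusted p = 0.799).

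Among 10 genes of the writer complex and other m6A methyltransferases, 4 rose and none fell (1 fell with the replicate block), with a median change of 0.34. RBM15B, an RNA-binding subunit that guides the writer to its targets, showed the largest change of them. It read 2516, 2794 and 3247 in DMSO and 6088, 6523 and 7200.0 with STM2457. All 3 treated libraries lay far above the controls, and the change was 1.22 (SE 0.12, adjusted p = 7.95e-04). METTL16, a separate methyltransferase that acts on the U6 small nuclear RNA and on the mRNA of the methyl donor synthase MAT2A, rose by 0.68 (SE 0.12, adjusted p = 0.00861). RBM15, the paralog of RBM15B, rose by 0.58 (SE 0.11, adjusted p = 0.00887), and WTAP, the scaffold that holds the writer together, by 0.62 (SE 0.15, adjusted p = 0.0259). Without STM2457 replicate 2 the RBM15 call was lost (adjusted p = 0.0549), and the WTAP call was lost without any 1 of 5 libraries, STM2457 replicate 3 being the exception (adjusted p up to 0.11). The writers that rose then numbered 2 without STM2457 replicate 2.

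Of 13 reader and eraser genes tested, 2 rose and 2 fell, where 8.46% of all genes rose and 6.2% fell. These counts are small, and without the variance trend 1 rose and 0 fell. YTHDF2, the reader best known for sending methylated mRNA to decay, stood at 1334, 1275 and 1388 in DMSO and at 2335, 2281 and 2273 with STM2457. Spread within both groups was small beside the gap between them, and the change was 0.79 (SE 0.09, adjusted p = 0.00168). Its paralog YTHDF1 rose by 0.44 (SE 0.09, adjusted p = 0.015). A pair of proteins reported to stabilise methylated mRNA went the other way: IGF2BP3 fell by 0.64 (SE 0.14, adjusted p = 0.0183) and IGF2BP2 by 0.33 (SE 0.09, adjusted p = 0.0434). The YTHDF1 call was lost without DMSO replicate 2 or STM2457 replicate 2 (adjusted p up to 0.0671). The IGF2BP3 call was lost without replicate 1 or 2 of either group (up to 0.0727), and the IGF2BP2 call without any 1 library (up to 0.157). The demethylases did not pass: FTO changed by 0.22 (SE 0.12, adjusted p = 0.254) and ALKBH5 by 0.03 (SE 0.14, adjusted p = 0.909).

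**Figure D1:**
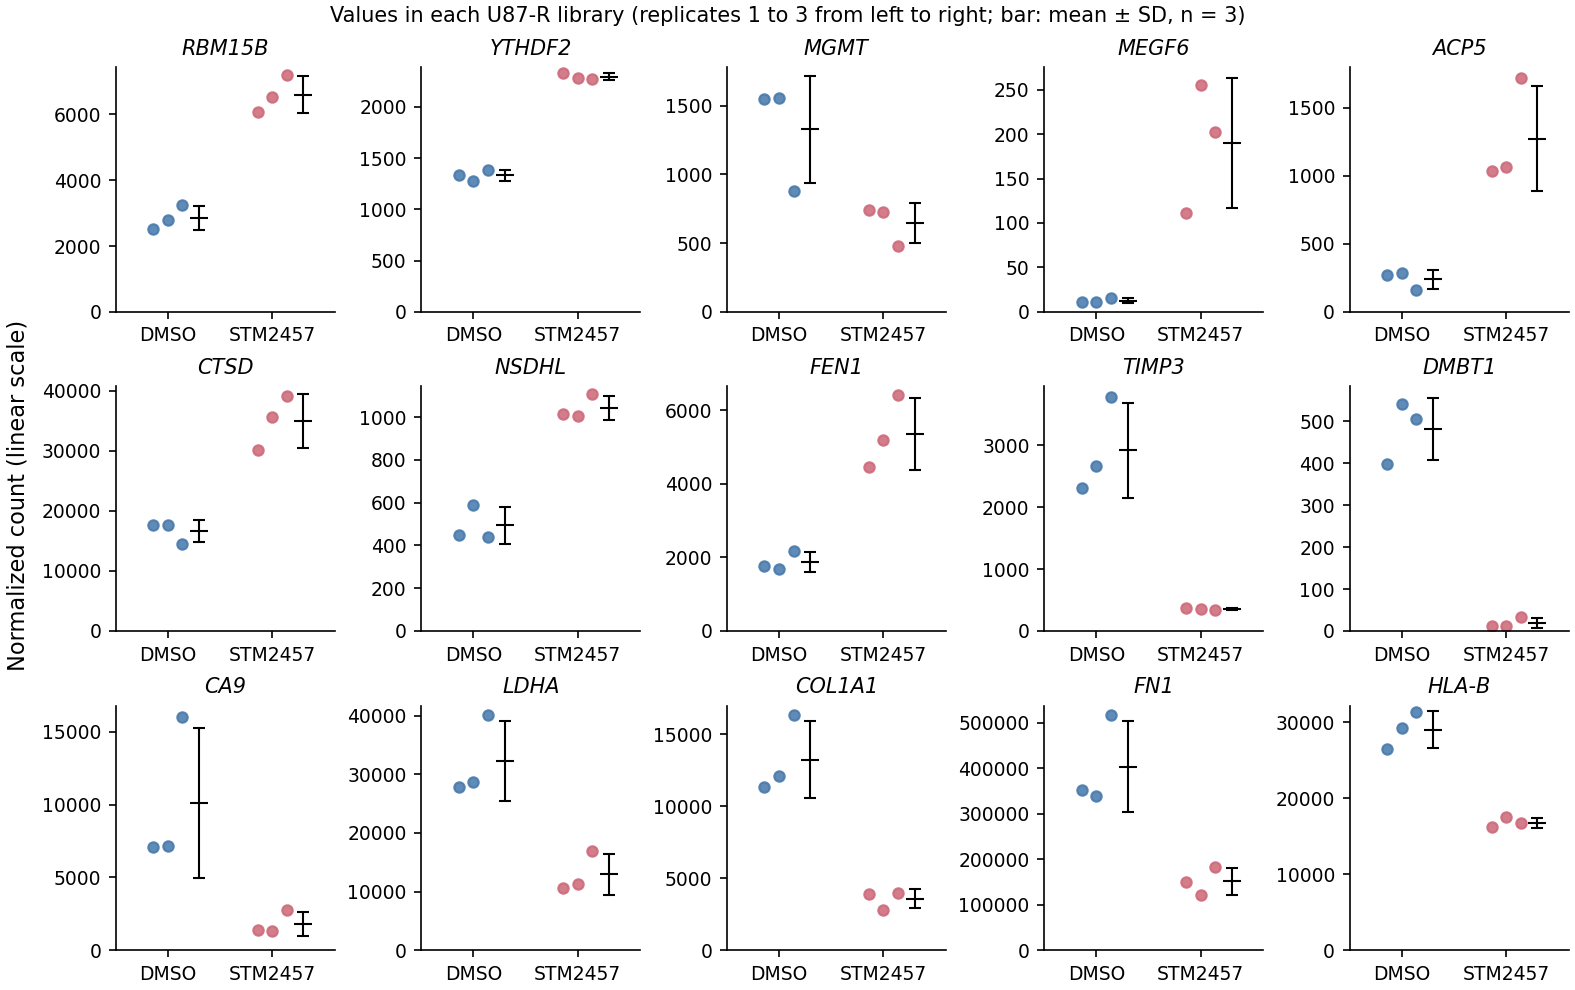
Normalized counts of 15 genes in each U87-R library, on linear axes that start at 0. Points are replicates 1 to 3 of DMSO (blue) and STM2457 (red), and bars give the mean ± SD (n = 3). RBM15B, YTHDF2, MEGF6, ACP5, CTSD, NSDHL and FEN1 were higher with STM2457 in all 3 libraries, and the other 8 genes were lower in all 3.

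The direction of change was related to gene structure. RBM15B is encoded in 1 exon, and mRNAs with few exons carry the fewest exon junction complexes. Protein-coding genes were therefore grouped by the number of exons in 1 GENCODE 29 transcript model per gene, a split chosen after the data were seen. The model was the one ranked best as principal isoform (APPRIS annotation). Ties went to the longest coding sequence and then to the longest transcript. Models were available for 12878 of 12981 tested protein-coding genes (99.2%). Of these, 9.76% rose and 6.83% fell. Among 347 genes with 1 exon, 20.7% rose and 3.17% fell, and among 595 genes with 2 exons, 26.6% rose and 4.37% fell. The share that rose was 13.6% for 3 to 5 exons, 8.84% for 6 to 10, 6.56% for 11 to 20 and 4.71% for the 1761 genes with over 20 exons, of which 8.97% fell. Median changes ran from 0.26 and 0.29 for 1 and 2 exons to -0.08 for over 20. Over all these genes the change correlated with exon number at a Spearman rho of -0.18, with mean exon length at 0.17, with transcript length at -0.02 and with GC content at 0.10. These coefficients describe genes that share 6 libraries, and they carry no test.

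The gradient was present inside subsets that hold other properties closer together. Within transcripts of 2000 to under 4000 bases, 19.5% of 118 genes with 1 exon and 25.1% of 239 with 2 exons rose, against 4.05% of 321 with over 20. Among genes with a DMSO mean of at least 500, the shares were 31.0%, 33.5% and 4.83%. At a GC content of 40 to 45%, 20.1% of genes with 1 or 2 exons rose against 4.32% of those with over 5 exons, and at 55 to 60% the shares were 29.8% and 9.84%. A long internal exon went with a higher share too: 13.7% of genes whose longest internal exon had 400 to under 1000 bases rose, against 6.90% where it had under 200. The share did not climb further at 1000 bases and over, where it was 12.8%. The density of GGACT, a frequent form of the m6A consensus, showed a shallower gradient, from 8.78% under 1 copy per kilobase to 13.7% at 3 and over. In U87 MG these shares were 8.69% and 10.4%. The classes also differed in median GC content (45.7% and 56.8%) and median transcript length (3419 and 1395.5 bases). The part of these properties in the gradient was not tested. The contrast in exon number was kept at every setting tried. With the replicate block, 36.3% of genes with 1 or 2 exons and 12.7% of those with over 20 rose. Without the variance trend they were 17.4% and 1.99%. Without STM2457 replicate 2 the shares were 11.6% and 1.48%, and without DMSO replicates 1 and 2 and STM2457 replicate 1, each left out in turn, they were 16.3% and 2.80%, 15% and 2.56%, and 17.6% and 2.85%.

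Single-exon genes that rose came from several pathways. LENG9 read 131, 157 and 171 in DMSO and 496, 488 and 529.9 with STM2457, a change of 1.72 (SE 0.16, adjusted p = 6.41e-04). RRS1, a ribosome assembly factor, went from 725, 795 and 909 to 1590.1, 1694 and 2149 (1.15, SE 0.14, adjusted p = 0.00201). FANCF, a Fanconi anemia core subunit that helps repair DNA crosslinks, went from 229, 216 and 236 to 514, 484 and 472 (1.11, SE 0.13, adjusted p = 0.00163). In each of these genes the groups were far apart. SOX12, a transcription factor of the SoxC group, rose by 0.98 (SE 0.13, adjusted p = 0.00249), MOCS3, an enzyme of molybdenum cofactor synthesis, by 0.92 (SE 0.12, adjusted p = 0.00262), and DOLK, the dolichol kinase of protein glycosylation, by 0.80 (SE 0.11, adjusted p = 0.00272). These examples were chosen after their values were seen.

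**Figure D2:**
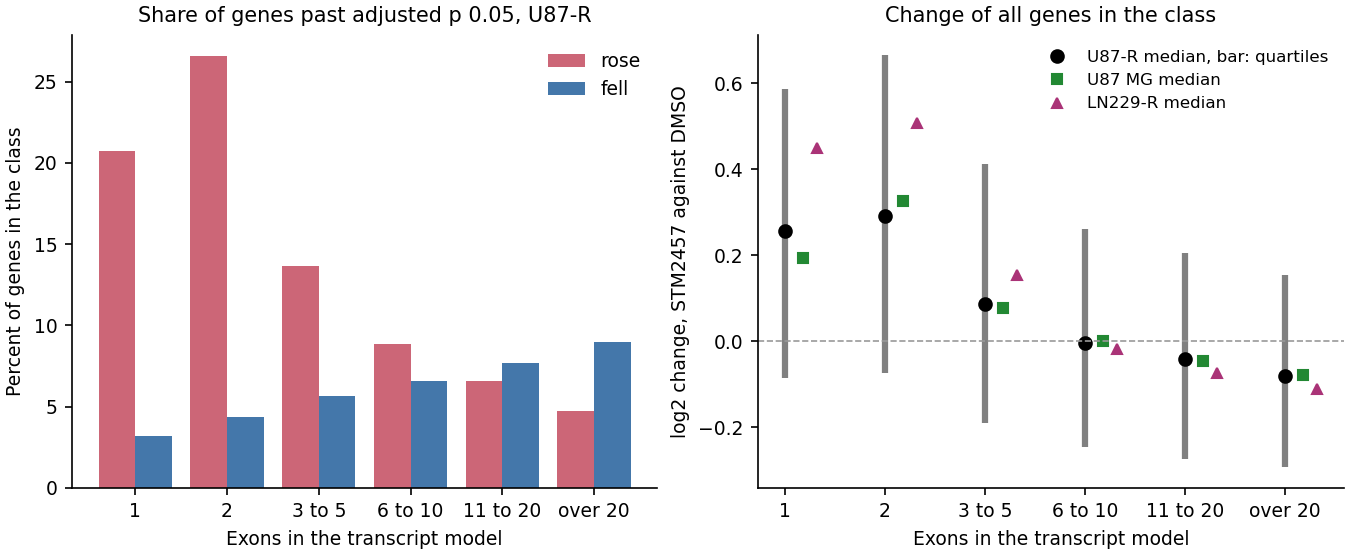
Left, percent of U87-R protein-coding genes that rose (red) or fell (blue) with STM2457, by the number of exons in the transcript model. Right, median log2 change of all genes in the class in U87-R (black, bar from the lower to the upper quartile), U87 MG (green) and LN229-R (purple); the share that rose goes from 26.6% at 2 exons to 4.71% at over 20.

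The largest rises named by a fixed rule (15 genes whose mean reached 100 and whose groups were separate) were led by genes with low levels in DMSO. MEGF6, a secreted protein with EGF-like repeats, read 11.3, 10.8 and 16.1 in DMSO and 111, 255 and 202 with STM2457, a change of 3.73 (SE 0.36, adjusted p = 7.74e-04). DHRS2, a mitochondrial reductase, went from 87.1, 58.7 and 201 to 657, 984 and 1712 (3.34, SE 0.45, adjusted p = 0.00272). CRYM, a thyroid hormone-binding protein, went from 404, 347 and 92.6 to 1740.3, 1718 and 1218 (2.7, SE 0.47, adjusted p = 0.00745). All treated values of these genes exceeded all control values, although the controls of CRYM and DHRS2 differed among themselves by more than the treated ones did in proportion.

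The bone-type acid phosphatase ACP5, the marker enzyme TRAP of osteoclast lysosomes, stood at 269.8, 289 and 159 in DMSO and at 1036, 1064 and 1722 with STM2457 (2.41, SE 0.26, adjusted p = 0.00125). GDF15, a stress cytokine, stood at 1193, 961 and 405 against 2939, 3610.2 and 2704 (1.98, SE 0.34, adjusted p = 0.0068). FAM124A had the tightest replicates of the group, at 56.5, 62.8 and 49.9 against 317, 282 and 287 (2.37, SE 0.18, adjusted p = 4.70e-04). Other genes of the rule that rose were the presynaptic scaffold PCLO by 2.58, the lipase relative PNLIPRP3 by 2.34, the O-glycan enzyme GCNT3 by 2.14 and the keratin KRT75 by 2.00. The collagenase MMP1 rose by 2.31 (SE 0.45, adjusted p = 0.0111), the BMP modulator KCP by 2.60 (SE 0.64, adjusted p = 0.0289) and the cytokine IL24 by 2.02 (SE 0.51, adjusted p = 0.0303). Without STM2457 replicate 2 these last 3 calls were lost (adjusted p = 0.0518 for MMP1, 0.0985 for KCP and 0.116 for IL24), as were those of KCP without DMSO replicate 2 and of KCP and IL24 without STM2457 replicate 1. RIMBP3B (2.12) and H3C14 (5.58) also met the rule, but both have near-identical copies elsewhere in the genome that share reads with them, and H3C14 is listed at 0 in DMSO replicates 1 and 2, so their values are uncertain. The RIMBP3B call was lost without STM2457 replicate 2 (adjusted p = 0.0641), and that of H3C14 without any 1 library except DMSO replicate 3 (up to 0.0904).

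Falls of the same rule held several genes of secretion, matrix and adhesion. DMBT1, a scavenger receptor glycoprotein, read 398, 541 and 506 in DMSO and 11.1, 11.8 and 32.4 with STM2457, which was the largest fall of the rule at -4.79 (SE 0.38, adjusted p = 4.94e-04). TIMP3, an inhibitor of metalloproteinases that stays bound to the matrix, went from 2308, 2667 and 3781 to 377, 363 and 344 (-2.98, SE 0.17, adjusted p = 2.22e-04). VCAM1, an adhesion receptor for leukocytes, went from 268, 175 and 225 to 38.2, 32.9 and 27.4 (-2.72, SE 0.25, adjusted p = 6.41e-04). In these genes the treated libraries lay far below the controls, and those of TIMP3 and VCAM1 lay close together.

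PPL, the desmosomal linker periplakin, fell from 3051, 2981 and 4246 to 594, 435 and 604 (-2.65, SE 0.18, adjusted p = 3.15e-04). A pair of carriers of insulin-like growth factors fell, IGFBP1 by 2.59 (SE 0.20, adjusted p = 4.45e-04) and IGFBP5 by 2.25 (SE 0.38, adjusted p = 0.00635). The monocyte attractant CCL2 stood at 153, 148 and 461 against 46, 26.5 and 57 (-2.38, SE 0.46, adjusted p = 0.0106), and the high control value of replicate 3 went with the highest treated value. Other falls were the ganglioside enzyme ST8SIA5 (-2.88), the plasminogen-binding lectin CLEC3B (-2.63), the lipase inhibitor ANGPTL4 (-2.57), the phosphodiesterase PDE4C (-2.5) and the MHC class II chaperone subunit HLA-DOA (-2.35). CA9 fell as well and is described with the hypoxia genes. GTF2IRD2B (-2.5) met the rule, but it shares nearly identical sequence with its neighbour copies, its values are uncertain, and its call was lost without STM2457 replicate 2 (adjusted p = 0.0536).

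The 34 genes of the hypoxia and glycolysis list showed the broadest movement of any list examined: 27 fell, none rose and the median change was -0.79, against 6.2% of all genes falling and a median of -0.00. Hypoxia-inducible factor (HIF) is a transcription factor that activates glucose transport, glycolysis, pH regulation and vessel growth genes when oxygen is low, and many cultured tumour cells keep part of this programme on. CA9, a carbonic anhydrase at the cell surface and a classic HIF target, read 7084, 7174 and 16057 in DMSO and 1373, 1318 and 2745 with STM2457. Replicate 3 was the highest of both groups, the groups did not overlap, and the change was -2.45 (SE 0.36, adjusted p = 0.00347). The mitophagy receptor BNIP3 went from 3112, 3038 and 5349.8 to 944, 1092 and 1470.3 (-1.69, SE 0.23, adjusted p = 0.00294). SLC2A1, the glucose transporter GLUT1, went from 3901, 4640.2 and 6775 to 1403, 1259 and 2288 (-1.64, SE 0.25, adjusted p = 0.00435).

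Enzymes along the glycolytic pathway fell together. LDHA, which turns pyruvate into lactate, stood at 27863, 28730.0 and 40179.8 in DMSO and at 10651, 11210.0 and 16937 with STM2457 (-1.33, SE 0.20, adjusted p = 0.00386). Values of the other enzymes were -1.35 for PGK1, -0.94 for ALDOC, -0.88 for ALDOA, -0.79 for GAPDH, -0.79 for ENO1, -0.69 for ENO2, -0.65 for TPI1, -0.55 for PKM and -0.42 for HK2. Regulators did too: the growth factor VEGFA fell by 0.85 (SE 0.11, adjusted p = 0.00208) and the stress-response gene NDRG1 by 1.32 (SE 0.20, adjusted p = 0.00385). The HIF subunit gene HIF1A itself changed by -0.43 (SE 0.09, adjusted p = 0.0185). HK1 (0.12), EPAS1 (0.06), EGLN1 (-0.23) and PFKP (-0.31) were among the 7 that did not pass. The count of genes that fell was 31 with the replicate block. It was 15 without the variance trend, 18 without DMSO replicate 2, 18 without STM2457 replicate 1 and 13 without STM2457 replicate 2.

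HIF binds a core of 5 letters, ACGTG. Promoter windows of 300 bases (250 before to 50 after the start of the gene, RefSeq on GRCh38.p14) were searched for it on both strands, a check added after the data were seen. The core was present in 21.6% of all 27305 promoters, in 26.6% of the 11194 tested genes with a window, in 12 of 31 genes of the list with a window (38.7%) and in 10 of 24 of those that fell (41.7%). The windows around 5 of them are shown as examples of genes that fell. Capitals mark the core or its reverse complement CACGT, in the direction of transcription; where both overlap the 6 letters CACGTG are in capitals. A match is a description of the letters and not evidence of binding.
CA9 (chr9:35673885-35673927, plus strand): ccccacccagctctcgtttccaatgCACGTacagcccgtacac
BNIP3 (chr10:131982027-131982081, minus strand): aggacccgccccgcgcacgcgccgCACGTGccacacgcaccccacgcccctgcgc
PGK1 (chrX:78104040-78104094, plus strand): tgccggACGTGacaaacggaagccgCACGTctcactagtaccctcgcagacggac
LDHA (chr11:18394465-18394519, plus strand): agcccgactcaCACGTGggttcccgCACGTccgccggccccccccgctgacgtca
ALDOC (chr17:28576896-28576948, minus strand): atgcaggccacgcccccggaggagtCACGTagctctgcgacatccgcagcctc

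**Figure D3:**
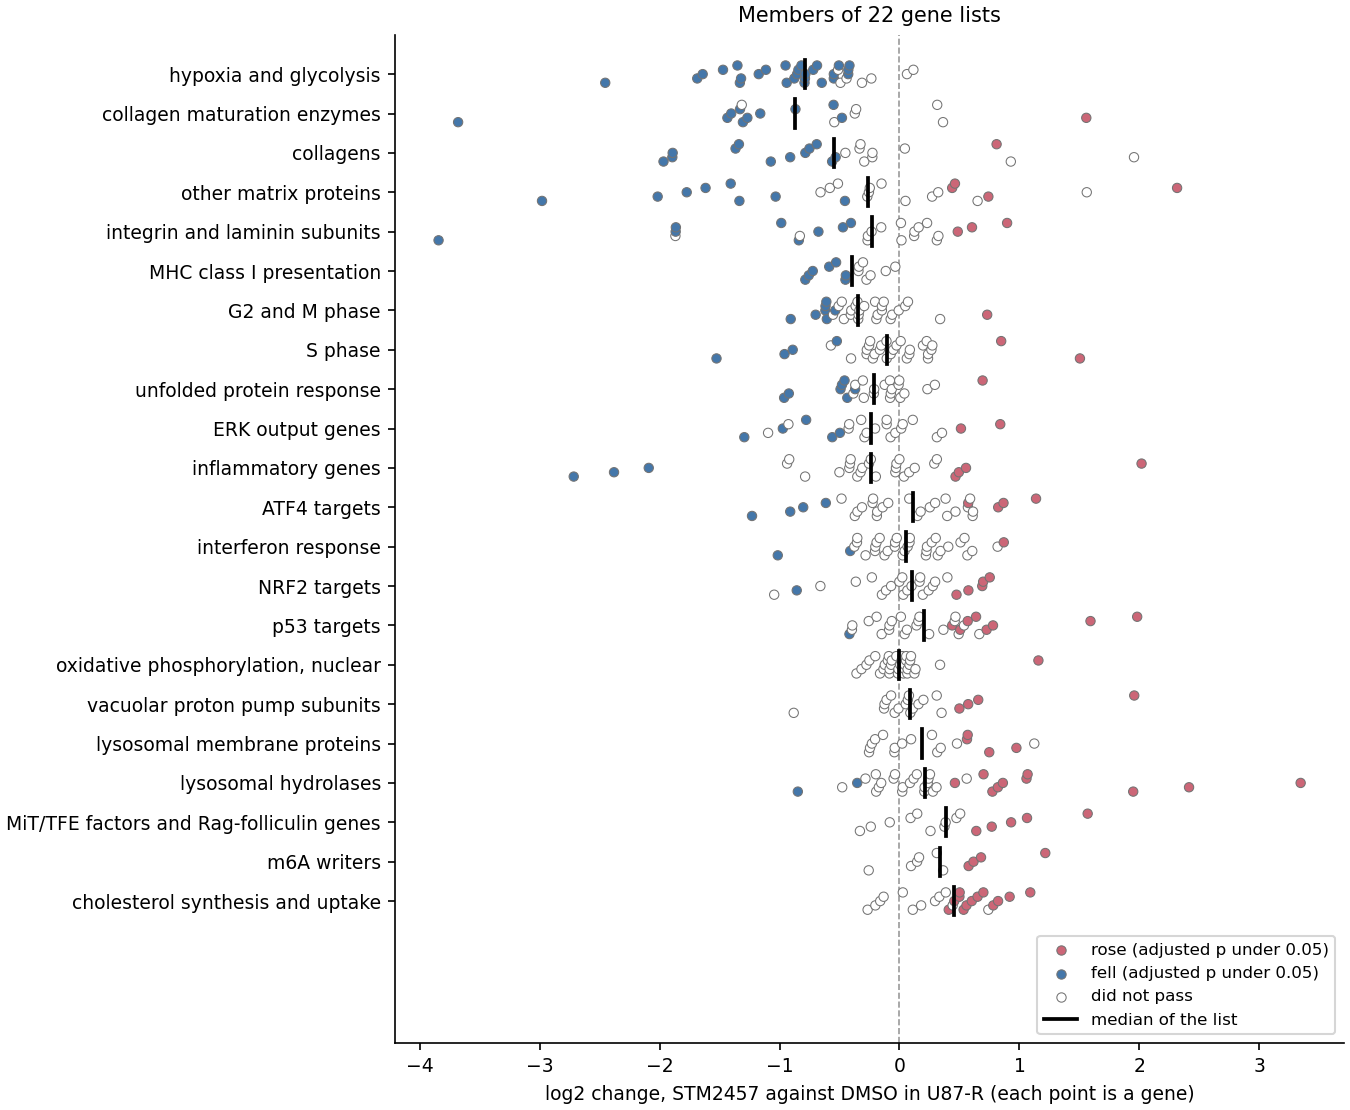
Log2 change in U87-R of each tested member of 22 gene lists, with genes that rose in red, genes that fell in blue, genes that did not pass in white and the median of the list as a black bar. The hypoxia and glycolysis list has 27 of 34 members in blue and none in red, and the cholesterol list 13 of 25 in red and none in blue.

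Genes that build and cross-link collagen fell. Collagens are triple-helical chains that form the fibres and sheets of the matrix. Of 22 collagen genes tested, 12 fell and 1 rose, with a median of -0.55. COL1A1, a chain of fibrillar type I collagen, stood at 11322, 12072 and 16308 in DMSO and at 3883, 2798 and 3999 with STM2457 (-1.89, SE 0.17, adjusted p = 6.70e-04). COL1A2, its partner chain, stood at 34505, 33477 and 55955 against 9883, 8475 and 12913 (-1.97, SE 0.21, adjusted p = 0.00122). The lowest control of both genes was more than the highest treated value by a wide margin. The fibril regulators COL5A1 and COL5A3 fell by 1.34 (SE 0.23, adjusted p = 0.00678) and 1.37 (SE 0.18, adjusted p = 0.00246), and the beaded-filament chains COL6A1 and COL6A3 by 0.69 (SE 0.12, adjusted p = 0.0067) and 0.75 (SE 0.12, adjusted p = 0.00536). COL16A1 was the member that rose, by 0.81 (SE 0.13, adjusted p = 0.00515). The network chains COL4A1 (0.93) and COL4A2 (-0.45) did not pass. Without DMSO replicate 2, or without STM2457 replicate 2, the count of falls was 8.

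Enzymes that modify collagen moved with it: 10 of 17 fell and 1 rose (14 and 3 with the replicate block), with a median of -0.87. P4HA1, a prolyl hydroxylase subunit, fell by 1.31 (SE 0.11, adjusted p = 5.94e-04). PLOD2, the lysyl hydroxylase that sets cross-link type, read 7116, 7942 and 10159 in DMSO and 3256, 3001 and 2974 with STM2457 (-1.43, SE 0.13, adjusted p = 6.75e-04). Of the lysyl oxidases, which form the cross-links, LOX, LOXL1, LOXL2 and LOXL3 fell by 1.33, 1.4, 1.16 and 1.27, and LOXL4 went from 109.7, 99.7 and 259.9 to 11.9, 7.45 and 11.7 (-3.68, SE 0.41, adjusted p = 0.00133). The procollagen protease ADAMTS2 rose by 1.56 (SE 0.27, adjusted p = 0.00697). PLOD2 and P4HA1 are also HIF targets, so this list is not independent of the hypoxia list. The count of falls was 7 without DMSO replicate 2, STM2457 replicate 1 or STM2457 replicate 2.

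Of 24 other matrix proteins and their proteases, 8 fell and 4 rose (median -0.26). FN1, fibronectin, stood at 352675, 339781 and 518023 in DMSO and at 149914, 121853 and 182281 with STM2457 (-1.41, SE 0.19, adjusted p = 0.0029). TGFBI, a collagen-binding adhesion protein induced by TGF-beta, went from 90314, 100491 and 176553 to 30288, 33604 and 54625 (-1.62, SE 0.28, adjusted p = 0.00687). In both genes replicate 3 was the highest of its group and the groups were apart. SPARC fell by 1.03 (SE 0.15, adjusted p = 0.0039), EFEMP1 by 1.33 (SE 0.21, adjusted p = 0.00478), THBS1, thrombospondin 1, by 2.02 (SE 0.33, adjusted p = 0.00568) and HMCN2 by 1.77 (SE 0.21, adjusted p = 0.00159). The 4 that rose were all matrix metalloproteinases: MMP14 by 0.74 (SE 0.11, adjusted p = 0.00415), MMP1, and, with values of 0.44 and 0.46, MMP2 and MMP3. The inhibitors TIMP3 and TIMP2 (-0.45) were among the falls. The count of rises was 2 without DMSO replicate 1 or DMSO replicate 2 and 1 without STM2457 replicate 2 or without the variance trend.

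Integrins are the receptors of cells for matrix, and laminins are basement membrane ligands. Of 25 such subunits, 8 fell and 3 rose (median -0.23). ITGB1, the beta chain shared by most collagen and fibronectin receptors, read 28488, 27691 and 26471 in DMSO and 16855, 15725 and 13764 with STM2457 (-0.84, SE 0.10, adjusted p = 0.00168). ITGA11, the alpha chain of a collagen I receptor, read 111, 115 and 51.3 against 8.08, 5.81 and 2.72. ITGA11, counted among the 8 falls, passed the filter on low values through its DMSO libraries alone. No test is given for it, and 7 subunits fell at a minimum mean of 50. ITGA7 fell by 0.99 (SE 0.13, adjusted p = 0.00262), while ITGB5 rose by 0.49 (SE 0.10, adjusted p = 0.0123). The fibronectin receptor chain ITGA5 changed by 0.60 (adjusted p = 0.0136), a call lost without DMSO replicate 1, DMSO replicate 2 or STM2457 replicate 2 (up to 0.0581). The count of falls was 12 with the replicate block, 5 without DMSO replicate 1, 4 without DMSO replicate 2 and 3 without STM2457 replicate 2. The count of rises was 1 without STM2457 replicate 2, and without the variance trend 0 rose and 4 fell.

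Lysosomal enzymes rose in part. Lysosomes break down macromolecules with acid hydrolases, and the transcription factors TFEB, TFE3 and MITF (the MiT/TFE family) switch on many of their genes through the sequence CACGTG. Of 33 hydrolase genes tested, 10 rose and 2 fell (18 and 4 with the replicate block), with a median of 0.21. A single hydrolase fell when any 1 library was left out. CTSD, the aspartic protease cathepsin D, stood at 17662, 17709.8 and 14548 in DMSO and at 30099, 35682 and 39047 with STM2457 (1.07, SE 0.13, adjusted p = 0.00159). CTSK, a collagen-degrading cathepsin, stood at 3117, 2959 and 1343 against 10938, 10727 and 6070.3 (1.95, SE 0.33, adjusted p = 0.00667). CTSH went from 2.42, 3.04 and 0.992, close to 0, to 32.3, 25.1 and 32.2. It passed the filter on low values through its STM2457 libraries alone, so no test is given for it, and 9 hydrolases rose at a minimum mean of 50.

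Other hydrolases changed by less. NAGLU, which degrades heparan sulfate, rose by 1.06 (SE 0.09, adjusted p = 6.10e-04), the tripeptidyl peptidase TPP1 by 0.82 (SE 0.09, adjusted p = 0.00116) and the sialidase NEU1 by 0.70 (SE 0.11, adjusted p = 0.00447). GAA, the acid alpha-glucosidase that degrades glycogen, went against the list, from 1937, 1971 and 2073 to 1148, 1143 and 1035 (-0.85, SE 0.10, adjusted p = 0.00159). The abundant cathepsins CTSB (-0.04) and CTSL (0.12) did not pass. Among 18 lysosomal membrane and lipid-export genes, 4 rose and none fell (6 and 2 with the replicate block). They included the cholesterol exporters NPC2 (0.57, SE 0.11, adjusted p = 0.01) and NPC1 (0.97, SE 0.22, adjusted p = 0.0198), and the NPC1 call was lost without STM2457 replicate 1 or 2 (up to 0.0845). Without STM2457 replicate 2, or without the variance trend, the membrane count was 1. The membrane glycoproteins LAMP1 and LAMP2 each changed by -0.04.

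Of 20 subunits of the vacuolar proton pump, which acidifies lysosomes, 4 rose and none fell (6 and 1 with the replicate block), with a median of 0.08. ATP6V0E1 rose by 0.66 (SE 0.10, adjusted p = 0.0039) and ATP6V0D1 by 0.57 (SE 0.10, adjusted p = 0.0069). ATP6V0D2, an isoform known from osteoclasts, changed from 39.1 ± 16.9 to 152 ± 56.6 (SD, n = 3; 1.96, SE 0.41, adjusted p = 0.0149), and its call was lost without STM2457 replicate 1 or 2 (up to 0.0721). Without either of those libraries, or without the variance trend, the pump count was 2. Most ubiquitous subunits were close to 0, such as ATP6V1A at 0.08 and ATP6V0B at -0.04.

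MiT/TFE factors and the Rag GTPases with folliculin and its partners, which control those factors at the lysosome surface, gave 5 rises and no fall among 15 (8 rises with the block), with a median of 0.38. RRAGC went from 978, 862 and 708 to 1690.0, 1668 and 1467 (0.93, SE 0.14, adjusted p = 0.00399). LAMTOR2, a subunit of the complex that anchors the Rag GTPases, rose by 0.77 (SE 0.10, adjusted p = 0.00231), RRAGA by 0.64 (SE 0.10, adjusted p = 0.00433) and the folliculin partner FNIP2 by 1.06 (SE 0.18, adjusted p = 0.00673). RRAGD, at 205, 176 and 65.2 against 451, 383 and 362, rose by 1.57 (SE 0.38, adjusted p = 0.0253), a call lost without STM2457 replicate 1 or 2 (up to 0.0822). The factors themselves did not pass: MITF changed by 0.38 (adjusted p = 0.209), TFEB by 0.15 (adjusted p = 0.749) and TFE3 by -0.08 (adjusted p = 0.699). With the replicate block MITF passed (adjusted p = 0.0455). GPNMB, a membrane glycoprotein used as a readout of these factors, read 1255, 694 and 146 in DMSO and 2434, 1846 and 1201 with STM2457. Each treated library exceeded the control of its own number, but the groups overlapped, and the change of 1.8 (SE 0.65) passed with the block (adjusted p = 0.00675) and not without it (adjusted p = 0.101). None of 5 melanosome genes tested passed (1 rose with the block).

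CACGTG was present in 7.43% of all promoter windows and in 9.99% of those of tested genes. In the 65 lysosome, proton pump and MiT/TFE genes with a window it was found in 19 (29.2%), and in 6 of the 15 that rose (40%). It is its own reverse complement, so both strands are covered, and it contains the HIF core ACGTG. Windows of 4 genes that rose and of GAA, which fell, are shown with the motif in capitals, since a gene with the motif moved in either direction.
RRAGC (chr1:38859854-38859909, minus strand): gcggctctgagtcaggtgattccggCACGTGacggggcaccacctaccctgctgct
CTSD (chr11:1763944-1763999, minus strand): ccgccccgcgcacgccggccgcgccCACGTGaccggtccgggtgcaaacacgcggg
NEU1 (chr6:31862917-31862972, minus strand): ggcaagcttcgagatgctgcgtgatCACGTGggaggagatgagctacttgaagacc
ATP6V0D1 (chr16:67481186-67481241, minus strand): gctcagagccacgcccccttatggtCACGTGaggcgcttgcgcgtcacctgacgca
GAA (chr17:80101525-80101580, plus strand): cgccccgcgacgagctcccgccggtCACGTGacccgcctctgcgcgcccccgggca

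Autophagy genes gave 5 rises and 1 fall among 25 (7 and 3 with the block). WIPI1, a phosphoinositide-binding protein of the forming autophagosome, rose by 0.65 (SE 0.11, adjusted p = 0.0069). The receptor SQSTM1 (p62) changed from 31147 ± 7634 to 49045 ± 3572 (SD, n = 3; 0.69, SE 0.17, adjusted p = 0.0316), and its call was lost without DMSO replicate 2, STM2457 replicate 1 or STM2457 replicate 2 (up to 0.122). The receptor CALCOCO2 fell by 0.50 (SE 0.10, adjusted p = 0.0148), a call lost without DMSO replicate 2 (adjusted p = 0.062). The count of rises was 3, 2 and 2 without DMSO replicate 3, DMSO replicate 1 and STM2457 replicate 1, and 1 without DMSO replicate 2 or STM2457 replicate 2 or without the variance trend.

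Genes of cholesterol synthesis and uptake rose together: 13 of 25 rose and none fell, with a median of 0.46. The pathway is switched on by SREBP2 when sterols in the endoplasmic reticulum are low. NSDHL, a sterol dehydrogenase of the late pathway, stood at 451, 592 and 439 in DMSO and at 1016, 1006 and 1109 with STM2457 (1.09, SE 0.14, adjusted p = 0.0024). LSS, which closes the sterol rings, stood at 4279, 4313 and 4047 against 7619, 7178 and 6942 (0.78, SE 0.09, adjusted p = 0.00133). The late reductase DHCR7 rose by 0.82 (SE 0.11, adjusted p = 0.00244), and FDFT1 and FDPS, which make squalene and its precursor, by 0.60 (SE 0.10, adjusted p = 0.00533) and 0.56 (SE 0.09, adjusted p = 0.00468). SREBF2, the gene of the regulator SREBP2 itself, did not pass (-0.13). Cholesterol genes that rose numbered 8 without DMSO replicate 1, DMSO replicate 2 or STM2457 replicate 1 7 without the variance trend and 6 without STM2457 replicate 2.

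Of 24 lipid droplet and fatty acid genes, 5 rose and 2 fell, where 8.46% of all genes rose and 6.2% fell. The desaturases FADS2 and FADS1 rose by 1.24 (SE 0.20, adjusted p = 0.00543) and 0.75 (SE 0.11, adjusted p = 0.00305). The monoglyceride lipase MGLL fell by 0.57 (SE 0.08, adjusted p = 0.00351) and the fatty acid oxidation enzyme ACADVL by 0.50 (SE 0.09, adjusted p = 0.00671). Lipid genes that rose numbered 3 without DMSO replicate 1 or 2 or without the variance trend, and 2 without STM2457 replicate 2.

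Cell cycle genes gave calls in both directions. Of 31 S phase genes, 4 fell and 2 rose (7 and 3 with the block), where 6.2% of all genes fell and 8.46% rose, so the rises were near that background. TYMS, thymidylate synthase, went from 1914, 1840.0 and 2355 to 991, 986 and 1333 (-0.89, SE 0.15, adjusted p = 0.00671), and the cyclin gene CCNE2 fell by 1.53 (SE 0.22, adjusted p = 0.00371). FEN1, the nuclease that trims Okazaki fragments and takes part in long-patch base excision repair, went up from 1759, 1698 and 2179 to 4469, 5194 and 6406 (1.5, SE 0.15, adjusted p = 9.23e-04). The S phase falls numbered 2 without DMSO replicate 1, STM2457 replicate 2 or the variance trend. Of 32 G2 and M phase genes, 7 fell and 1 rose (19 falls with the block), with a median of -0.34. The spindle motor KIF11 fell by 0.61 (SE 0.11, adjusted p = 0.0086). TOP2A changed by -0.53 (adjusted p = 0.0117), a call lost without DMSO replicate 2 or STM2457 replicate 2 (up to 0.0581). The proliferation marker MKI67 read 8488, 8102 and 11105 against 8101, 8485 and 10966, a change of -0.01 with groups that overlapped. The mitotic falls numbered 3 without DMSO replicate 1 or 2 or the variance trend, 4 without STM2457 replicate 1 and 1 without STM2457 replicate 2, and 12 without STM2457 replicate 3.

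U87 MG and its derivatives are known to carry wild-type p53. Of 30 p53 target genes, 8 rose and 1 fell (13 and 3 with the block), with a median of 0.21. TP53I3, a quinone reductase, went from 199.9, 148 and 209.7 to 467, 518 and 708 (1.59, SE 0.20, adjusted p = 0.00222). TIGAR, a phosphatase that lowers glycolytic flux, rose by 0.78 (SE 0.13, adjusted p = 0.00564), and BAX, an effector of apoptosis, changed by 0.51 (SE 0.11, adjusted p = 0.0202). The most used p53 readouts did not pass: the cell cycle inhibitor CDKN1A read 4636, 4892 and 3700.2 against 4313, 4838 and 3519 (-0.06, adjusted p = 0.809), and MDM2 changed by 0.04 (adjusted p = 0.904). The count of rises was 3 without STM2457 replicate 2 and 5 without the variance trend.

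Stress pathways gave split counts, where 8.46% of all genes rose and 6.2% fell. Of 30 ATF4 targets, 4 rose and 4 fell (8 and 8 with the block). STC2, stanniocalcin 2, fell from 5822, 6492 and 4398 to 2278, 2331 and 2428 (-1.23, SE 0.14, adjusted p = 0.00146), and the mTORC1 inhibitor DDIT4 fell by 0.91 (SE 0.12, adjusted p = 0.00237). Both are also HIF targets. The transcription factor CEBPB rose by 0.57 (SE 0.10, adjusted p = 0.00634). Without DMSO replicate 3 the ATF4 list had 7 falls, and its rises numbered 2 without STM2457 replicate 1 and 1 without STM2457 replicate 2 or the variance trend. Of 25 genes of the unfolded protein response, 7 fell and 1 rose (11 falls with the block). The chaperone HSP90B1 went from 37163, 33855 and 22926 to 16439.8, 17844 and 13314 (-0.96, SE 0.18, adjusted p = 0.0104), while HSPA5, its best known member, changed by -0.00. The falls of this list numbered 2 without DMSO replicate 1, DMSO replicate 2 or STM2457 replicate 2, 3 without STM2457 replicate 1, 4 without DMSO replicate 3 and 1 without the variance trend. Of 25 NRF2 targets, 5 rose and 1 fell (7 and 3 with the block). The pentose phosphate enzyme PGD rose by 0.69 (SE 0.09, adjusted p = 0.00262), SRXN1 by 0.70 (SE 0.10, adjusted p = 0.00344) and OSGIN1 by 0.75 (SE 0.11, adjusted p = 0.00385). The glutathione synthesis subunit GCLM fell by 0.86 (SE 0.14, adjusted p = 0.00614), and NQO1 changed by -0.07. The NRF2 rises numbered 3 without STM2457 replicate 2, and the falls 3 without DMSO replicate 3 and 2 without STM2457 replicate 1.

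Genes of MHC class I presentation, which display peptides to T cells, fell: 7 of 14 passed, none rose, and all 14 values were below 0, with a median of -0.39 (12 falls with the block). HLA-B read 26469.9, 29237 and 31324 in DMSO and 16203, 17520.3 and 16695 with STM2457 (-0.78, SE 0.10, adjusted p = 0.00174). HLA-C read 10419.9, 11076 and 12139.7 against 5940.5, 6801 and 7201 (-0.76, SE 0.11, adjusted p = 0.00299). No treated library reached the lowest control in either gene. HLA-F fell by 0.72 (SE 0.13, adjusted p = 0.00738). The shared light chain B2M fell by 0.45 (adjusted p = 0.0151), a call lost without DMSO replicate 1, DMSO replicate 2 or STM2457 replicate 2 (up to 0.0684). HLA genes are near-identical to each other in places, so reads can be split between them. The count of falls was 4 without DMSO replicate 2 or the variance trend and 3 without STM2457 replicate 2.

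Interferon response genes did not share this pattern: 2 of 34 fell, 1 rose (5 with the block), at or under the shares of all genes, and the median was 0.06. None passed without the variance trend. IRF1 (-0.41), MX2 (-1.01) and HERC6 (0.87) were the members that passed, each lost without 4 or more of the 6 libraries taken singly. Of 29 inflammatory genes, 4 rose and 3 fell (4 and 9 with the block). IL11, a cytokine of the IL-6 family, fell from 964, 1117 and 1383 to 239.9, 207 and 385 (-2.09, SE 0.23, adjusted p = 0.00133), beside VCAM1 and CCL2. The rises PTX3 (0.49), RELB (0.47) and TNFAIP3 (0.55) were each lost without replicate 1 or 2 of either group (adjusted p up to 0.134), and the count of rises was 1 without DMSO replicate 1 or 2 and 0 without STM2457 replicate 1, STM2457 replicate 2 or the variance trend. Without STM2457 replicate 3 the inflammatory falls numbered 6.

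Receptor tyrosine kinases and ERK output genes were mixed as well, where 8.46% of all genes rose and 6.2% fell. Of 18 receptors, 5 fell and 2 rose. EPHA2 stood at 1483, 1649 and 1944 in DMSO and at 798, 841 and 798 with STM2457 (-1.05, SE 0.12, adjusted p = 0.00159), while its relative EPHB2 stood at 1229, 1463 and 1335 against 2289, 2839 and 3364 (1.06, SE 0.15, adjusted p = 0.00292). The glioma receptors EGFR (-0.01) and PDGFRA (0.09) did not pass. The receptor falls numbered 2 without DMSO replicate 2 or STM2457 replicate 2, and the rises 1 without DMSO replicate 1, DMSO replicate 3, STM2457 replicate 1 or STM2457 replicate 2. Of 24 ERK output genes, 5 fell and 2 rose (11 and 4 with the block), so the rises were near the share of all genes. The immediate early factor EGR1 fell by 0.97 (SE 0.10, adjusted p = 0.00107) and PHLDA1 rose by 0.84 (SE 0.09, adjusted p = 0.00105). Without the variance trend 3 receptors fell and 1 rose. The ERK falls numbered 3 without DMSO replicate 1, DMSO replicate 2 or STM2457 replicate 1 and 2 without STM2457 replicate 2.

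MGMT, the enzyme that removes the O6-methylguanine lesions by which temozolomide kills cells, was expressed in U87-R and fell. It stood at 1548, 1557 and 877 in DMSO and at 739, 724 and 477 with STM2457. The lowest control, replicate 3, was above the highest treated value, and the change was -1.02 (SE 0.25, adjusted p = 0.0281; 2.97e-04 with the replicate block). The direction was the same at every setting, but the call was not firm: it was lost without DMSO replicate 1 (-0.88, adjusted p = 0.0909), DMSO replicate 2 (-0.88, adjusted p = 0.101), STM2457 replicate 2 (-1.11, adjusted p = 0.0662) or STM2457 replicate 3 (-0.81, adjusted p = 0.0624), with libraries scaled to equal totals (-0.97, adjusted p = 0.0554) and without the variance trend (-1.02, adjusted p = 0.087). In parental U87 MG the gene was near 0, at 0.618 ± 1.07 in DMSO and 0.388 ± 0.672 with STM2457 (SD, n = 3), and was not tested. Those values were normalized separately from the U87-R values, so the size of the gap in level between the lines is not given.

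Of 9 mismatch repair genes, whose products turn unrepaired lesions of temozolomide into lethal breaks, 1 rose and none fell. PMS2 changed by 0.68 (SE 0.17, adjusted p = 0.0276), with a call lost without DMSO replicate 2, STM2457 replicate 1 or STM2457 replicate 2 (up to 0.0963), and it has many pseudogene copies that share its reads. MSH6, a subunit of the mismatch sensor, changed by -0.19 (adjusted p = 0.255). In base excision and alkylation repair 3 of 19 genes rose and 2 fell (4 and 4 with the block), MGMT among the latter. The glycosylase MPG, which removes N3-methyladenine, changed by 0.10 (adjusted p = 0.727), the demethylase ALKBH2 by 0.84 (adjusted p = 0.0185) and the abasic endonuclease APEX1 by 0.64 (adjusted p = 0.0199). The ALKBH2 and APEX1 calls were lost without DMSO replicate 1, DMSO replicate 2 or STM2457 replicate 2 (up to 0.0764), and without any 1 of those libraries, or without the variance trend, none of the list rose or fell. Of 27 genes of homologous recombination and the Fanconi anemia pathway, 3 rose and 1 fell, near the shares of all genes (8.46% and 6.2%), with FANCF among the rises. The others, PALB2 (0.79), FANCE (0.85) and FANCL (-0.54), were each lost without DMSO replicate 1 or STM2457 replicate 2, among other libraries (up to 0.13). Of 11 drug efflux transporters, ABCA2 fell by 0.82 (SE 0.14, adjusted p = 0.00621) and 1 rose. That was ABCB4, at 4.63 ± 1.89 against 21 ± 3.31 (SD, n = 3), which passed the filter on low values through its STM2457 libraries alone, so no test is given for it, and the count was 0 at a minimum mean of 50. With the block 5 transporters fell. ABCG2 changed by -0.39 (adjusted p = 0.462).

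Glioma stem cell and astrocyte genes showed 3 falls and no rise among 15 tested (8 falls and 1 rise with the block, and 1 rise with equal totals). ALDH1A3, an aldehyde dehydrogenase of mesenchymal glioma, went from 8192, 8767 and 6078 to 3236, 3776 and 2800.3 (-1.22, SE 0.16, adjusted p = 0.00231), and CHI3L1, a secreted glycoprotein of the same subtype, from 14902, 13786 and 15663 to 9574, 5508 and 7485 (-1.01, SE 0.18, adjusted p = 0.00745). SOX9 changed by -0.82 (adjusted p = 0.028), with a call lost without DMSO replicate 2, DMSO replicate 3, STM2457 replicate 1 or STM2457 replicate 2 (up to 0.104). NES (nestin) changed by -0.26.

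Of 13 mitochondrially encoded mRNAs, 3 rose and none fell (8 rises and 1 fall with the block, and 6 rises with equal totals). MT-CYB stood at 32868, 32868 and 36963 against 50078, 51023 and 62838 (0.67, SE 0.11, adjusted p = 0.00666), and MT-ND6 rose by 0.59 (SE 0.09, adjusted p = 0.00428). The share of mitochondrial mRNA in a library was 6.07 to 6.94% in DMSO and 6.70 to 8.03% with STM2457, and its part in the result was not tested. The rises numbered 2 without DMSO replicate 1, DMSO replicate 2, STM2457 replicate 1 or STM2457 replicate 2. Of 34 nuclear genes of oxidative phosphorylation, UQCRFS1 alone passed (2 rises and 2 falls with the replicate block, and 2 rises with equal totals). This complex III subunit went from 1049, 1066 and 1194 to 2097, 2512 and 2819 (1.16, SE 0.13, adjusted p = 0.00133). The list had a median of -0.00.

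Markers of cell types that a glioma culture should not hold were also summed per library. The 8 microglia and macrophage markers summed to 118 to 136 normalized counts per library in DMSO and 105 to 225 with STM2457, and 5 of them (AIF1, C1QA, C1QB, P2RY12 and TYROBP) had no row in the table. The 6 endothelial markers summed to 33.1 to 52.2 and 42.9 to 81.5, and the 6 neuron markers to 642 to 823 and 663 to 742. None of these passed. The 7 fibroblast and pericyte markers summed to 3402 to 4149 and 2831 to 3064, with FAP at 1.84 (adjusted p = 0.0185) and PDGFRB at -0.85 (adjusted p = 0.0103). SOX10 and MAG, which define oligodendrocytes, had no row. Both calls of the fibroblast list were lost without STM2457 replicate 2, and that of FAP also without STM2457 replicate 1 (up to 0.0752 and 0.0518). CNP, which oligodendrocytes share with many other cells, was the only tested member of its list of 7, whose sum was 2241 to 2695 in DMSO and 3181 to 3679 with STM2457, and changed by 0.49 (adjusted p = 0.0181), a call lost without DMSO replicate 1, DMSO replicate 2 or STM2457 replicate 2 (up to 0.086). Collagen and other matrix genes are also fibroblast products, and the part of such markers in the matrix result was not tested.

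The STM2457 response of U87-R was set against that in its parental line, with separate control and treated libraries in a table of their own. The lines differ both in resistance and in the temozolomide of the medium, which cannot be told apart. In U87 MG, 2228 of 16407 genes changed (13.6%), 1289 upward (7.86%) and 939 downward (5.72%). Without its DMSO replicate 2 the counts were 744 and 464, without its STM2457 replicate 2 they were 519 and 371, and without its STM2457 replicate 3 they were 842 and 627. Over the 15680 genes tested in both lines, 808 genes rose in both, which is 59.6% of the 1355 rises of U87-R and 63.9% of the 1264 of U87 MG. A further 527 genes fell in both, 54.0% of 976 and 56.8% of 928. The split of rises and falls in U87 MG depended on scaling: rises were 68.6% of calls with libraries scaled to equal totals and 48.6% with equal upper quartiles, against 1289 of 2228 calls as deposited. Of the genes that rose in U87-R, 98.3% had a positive change in U87 MG, and of those that fell 98.0% had a negative one. The changes of the lines correlated over genes at r = 0.65, a description without a test.

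A test of the difference between both effects called no gene at an adjusted p under 0.05 (limma, 0 of 15680), 586 genes had an unadjusted p under 0.05 (3.74%), and the replicate block also called none. The median SE of a difference was 0.25, so the test does not show that effects are equal. FGF14, a regulator of neuronal sodium channels, changed in opposite directions in the lines. It read 7.36, 10.3 and 6.01 in DMSO and 42.6, 52.9 and 79.1 with STM2457 in U87-R, a change of 2.71, while that in U87 MG was -1.64. In U87-R it passed the filter on low values through its STM2457 libraries alone, so no test is given for it. Of the other genes SLC7A6, an amino acid transporter, had the lowest adjusted p. It fell from 1040.4, 1059 and 900.3 to 452, 521 and 529.6 in U87-R (-1.0) and changed by -0.02 in U87 MG (difference -0.98, SE 0.19, adjusted p = 0.884).

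The lists were counted in the parental line in the same way. The hypoxia list had 20 falls and no rise in U87 MG (median -0.55), collagens 11 falls of 21 (median -0.80), collagen enzymes 10 of 17 (median -0.87) and MHC class I genes 7 of 14 (median -0.36). Cholesterol genes had 13 rises and no fall in U87-R and 2 rises and 1 fall in U87 MG, with medians of 0.46 and 0.24. No member differed between the lines in the test of the difference. In U87 MG the single-exon and 2-exon classes had 21.2% and 28.7% rises and the class with over 20 exons 4.2%, where 9.19% of all protein-coding genes rose.

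**Figure D4:**
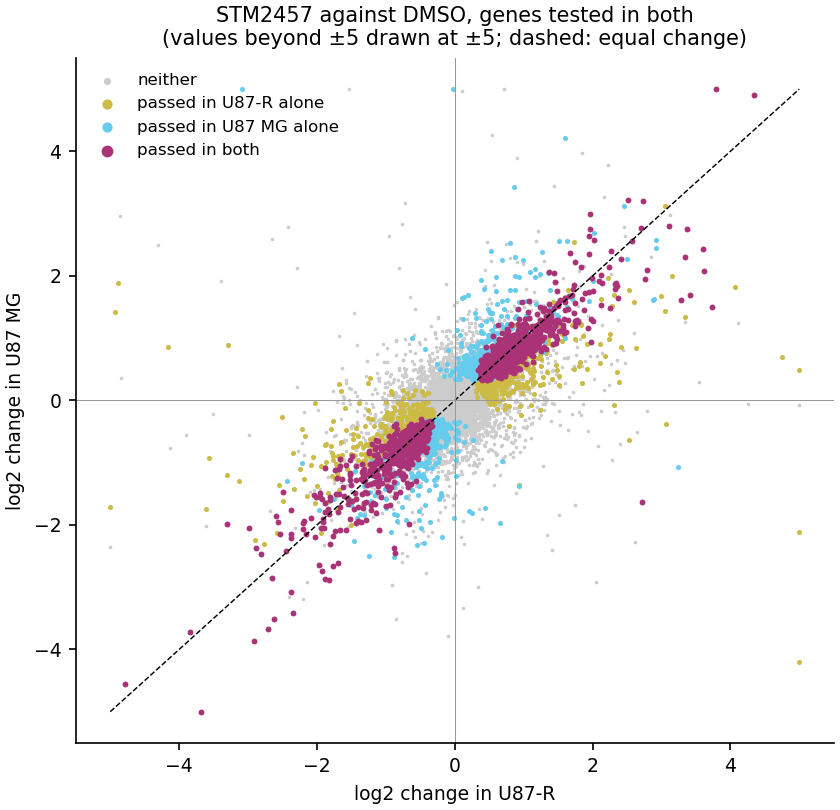
Log2 change with STM2457 in U87-R (horizontal) and U87 MG (vertical) for 15680 genes tested in both, with values beyond 5 drawn at the edge and the dashed line at equal change. Genes that passed in both lines (purple) lie along the diagonal in the upper right and lower left. FGF14, at 2.71 and -1.64, is the exception. It passed the filter on low values in U87-R through its STM2457 libraries alone.

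The libraries labelled LN229-R gave a wider contrast. They differ from U87-R in line, medium and library kit, all of which cannot be told apart, and the names of LN229 control libraries conflict between deposited tables. In LN229-R 6591 of 17063 genes changed (38.6%), 3674 upward (21.5%) and 2917 downward (17.1%). The falls numbered 1667 without its DMSO replicate 3 and 1874 without its DMSO replicate 1, and 4364 genes changed in all without the former. With equal upper quartiles 3329 genes rose and 3554 fell, so the larger direction turned. Among 13759 genes tested in both, 841 rose in both (68.5% of the 1228 rises of U87-R and 27.0% of the 3111 of LN229-R) and 341 fell in both (38.8% of 880 and 14.5% of 2357). There were 30 genes that rose in U87-R and fell in LN229-R, and 110 with the reverse. The difference passed for 1982 genes (14.4%), 675 with a more positive change in U87-R (4.91%) and 1307 with a more negative one (9.5%), or 1625 and 2132 with the replicate block.

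The hypoxia genes were among those that differed. In LN229-R 13 of 33 rose and 3 fell (median 0.25), and the difference passed for 20 of 33, each of them more negative in U87-R. CA9, counted among these 20, changed by 4.80 in LN229-R, from a mean of 1.31 to 61.8. In LN229-R it passed the filter on low values through its STM2457 libraries alone, so no test of its difference is given. MHC class I genes went opposite ways: 12 of 14 rose in LN229-R (median 1.05), and the difference passed for 13 of 14. For NRF2 targets 22 of 24 rose in LN229-R and the difference passed for 18, and for interferon genes 24 of 34 rose and it passed for 13. Cholesterol genes rose in both lines (19 of 24 in LN229-R, with 7 differences), as did m6A writers (4 of 10, with no difference), MiT/TFE and Rag-folliculin genes (9 rises, with 4 differences) and proton pump subunits (9 rises, with 4 differences). RBM15B rose in LN229-R by 0.77 and YTHDF2 by 0.76, beside 1.22 and 0.79 in U87-R. The single-exon and 2-exon classes had 44.1% and 50.6% rises in LN229-R and the class with over 20 exons 15.3%, where 24.1% of all protein-coding genes rose.

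**Figure D5:**
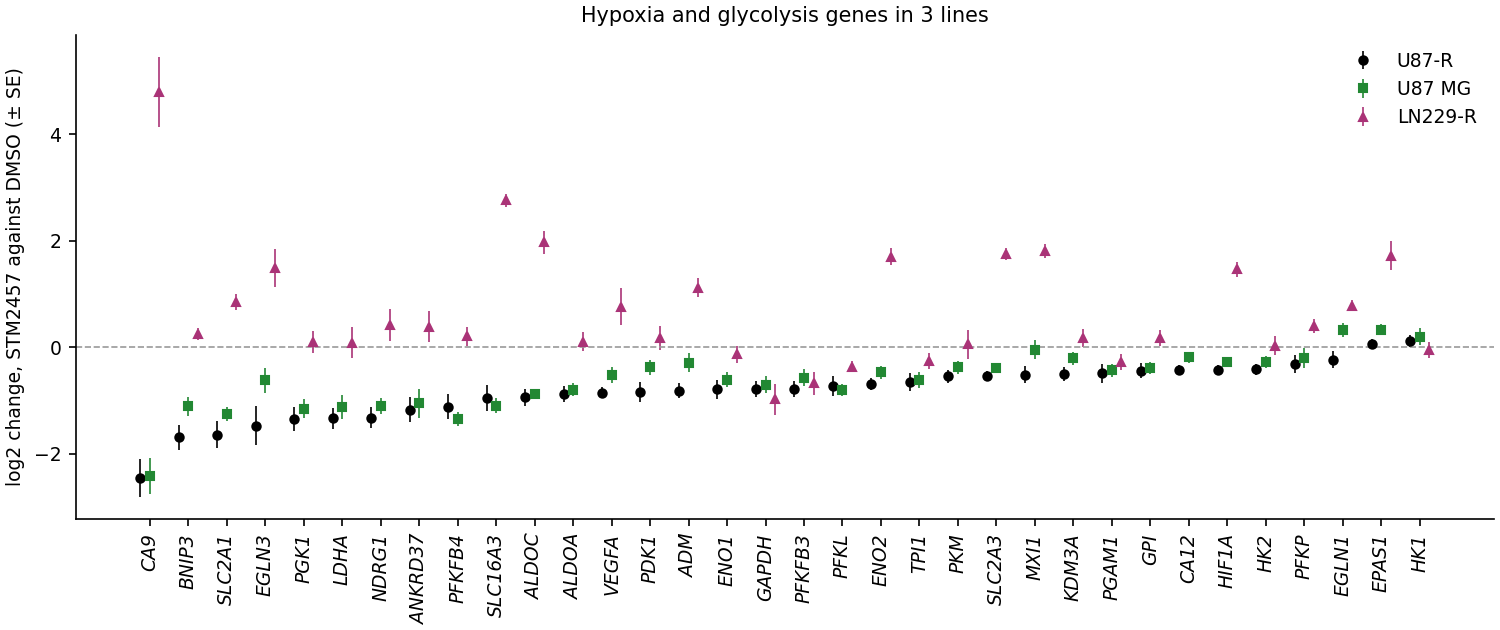
Log2 change with STM2457 (± SE) of the 34 hypoxia and glycolysis genes in U87-R (black circles), U87 MG (green squares) and LN229-R (purple triangles), ordered by the change in U87-R. U87-R and U87 MG lie mostly below 0, with CA9 at -2.45 and -2.42, while CA9 in LN229-R lies at 4.80 from a DMSO mean of 1.31.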

How the data were processed

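RNA from 24 libraries was sequenced after poly(A) selection, and the 6 libraries of U87-R and the 12 of U87 MG and of the table labelled LN229-R were analysed here, with the 6 of the table labelled LN229 used only as an alternative to the latter. The values are a signal in the form of normalized counts per gene, which the authors deposited in 1 table per line. Per the submitters' processing notes, the tools named include Trimmomatic 0.39, STAR 2.7.11a, Salmon 1.4.0 and DESeq2, with GRCh38 as the build. As raw counts were not used and whole reads could not be recovered from the values, no count test was run. Tables were normalized separately, so levels are compared only within a table.

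The U87-R table has 28144 rows. Values were transformed to log2(value + 1), genes with a mean under 10 were left out, and 16185 genes were tested with limma 3.58.1 (variance trend, R 4.3.3) with Benjamini-Hochberg adjustment over all of them. A fold change on this scale understates the change of low genes. Differences between lines were the difference of both effects in 1 limma model over 12 libraries. On simulated data with 200 changed genes, the U87-R test recovered 43.8% of changes of size 1 and 75.2% of size 2, with 4.6 false calls on average over 5 runs. Its noise was drawn independently for each gene and library, and far fewer genes changed than the 2373 called here. These rates therefore need not hold for the data, where libraries deviate together.

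Like-numbered libraries of U87-R deviated together (correlations of 0.174, 0.114 and 0.298 after removing group means), so the replicate number was taken as pairing them; the labels do not state a shared culture or day. The test without the block is the main one. Genes named are the 15 largest passing rises and falls whose mean reached 100 and whose groups were separate (unnamed loci, pseudogenes, antisense and readthrough genes left out), a fixed panel, and up to 8 passing members per gene list by lowest adjusted p, with other members given by value; some genes that met these rules are not reported here. The members and gene lists were chosen with earlier results of these data known. Gene models came from GENCODE 29 and promoters from RefSeq (GRCh38.p14). Alternatives changed the pseudocount, the filter, the scaling, the variance trend, the block, the threshold and the libraries included, and the split by exon number was added after seeing the data. Python 3.11.15, pandas 2.3.3 and matplotlib 3.10.9 were used.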

Additional observations from a re-analysis of the deposited data

Results flagged for a closer look

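These results stand out because the STM2457 effect differed between U87-R and the libraries labelled LN229-R by a test of the difference itself (limma, Benjamini-Hochberg adjusted). It passed for 1982 genes. Each value below is the log2 effect in U87-R minus that in LN229-R, for genes among the 10 largest in each direction with a mean of at least 100 in 1 of the tables.

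More positive in U87-R were RNA5-8SN2 (7.04), CD22 (6.28), H19 (6.22), CENPBD1P (5.82), BMP6 (4.50), C6orf141 (4.46), FAM131B (4.40), AATK (4.21) and TGM2 (4.06). TGM2, a transglutaminase that cross-links matrix proteins, changed by 0.78 in U87-R and by -3.28 in LN229-R. RNA5-8SN2, a ribosomal RNA copy with near-identical relatives, and the pseudogene CENPBD1P are listed at 0 in the STM2457 libraries of LN229-R, so their differences depend on the pseudocount and are uncertain. H19 had a mean of 5.27 in the STM2457 libraries of U87-R, and C6orf141 one of 3.87 in those of LN229-R. Such means lie under the filter of 10, so no test is read from the differences of H19 and C6orf141.

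More negative in U87-R were NUPR1 (-7.37), CA9 (-7.25), NECAB2 (-6.88), GALNT15 (-6.12), PRUNE2 (-5.50), C1S (-5.31), FGF11 (-5.21), PHACTR1 (-5.13), HCP5 (-4.89) and MMP1 (-4.87). GALNT15 and MMP1 are listed at 0 in the DMSO libraries of LN229-R, where NECAB2, CA9 and NUPR1 had means of 1.17, 1.31 and 4.40. HCP5 had a mean of 2.18 in the STM2457 libraries of U87-R. In that line each of these genes passed the filter on low values through the other group alone. Their differences depend on the pseudocount, and no test is read from them.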

How the results depend on the processing

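In U87-R the count of called genes was 1372 without the variance trend (798 higher, 574 lower), 4796 with the replicate block (2545, 2251) and 811 at an adjusted p under 0.01 (504, 307). The same settings gave 1301 (787, 514), 4137 (2212, 1925) and 783 (490, 293) in U87 MG, and 3521 (2251, 1270) in LN229-R at the stricter threshold. Like-numbered libraries correlated at 0.186, 0.0395 and 0.175 in U87 MG and at 0.175, 0.321 and 0.102 in LN229-R. In LN229-R, STM2457 replicate 1 also correlated with DMSO replicate 3 at 0.169. These values overlap those of U87-R, so pairing in the other lines is not settled. The replicate block in tests of a difference nevertheless paired the libraries of each line by number. Rises were 66% of U87-R calls with equal totals and 51.5% with equal upper quartiles. The difference from U87 MG called 1 gene upward at a pseudocount of 5 and 1 without the trend. In each setting it was FGF14, which passed the filter in U87-R through its STM2457 libraries alone, so no test is given for it. The difference from LN229-R called 3757 (1625, 2132) with the replicate block and 882 (244, 638) at 0.01. Leaving out 1 library gave 884 to 2217 calls in U87-R (514 to 1336 higher, 370 to 995 lower), 890 to 1803 in U87 MG (519 to 1073, 371 to 767), 4364 to 6425 in LN229-R (lower 1667 to 2849) and 0 to 4 for the difference from U87 MG (0 to 1 higher, 0 to 3 lower).

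VIM turned to 0.0401 with equal totals and ALKBH5 to -0.00391 with equal upper quartiles. With the table labelled LN229 in place of LN229-R, the difference turned to -6.98 for RNA5-8SN2 and -0.52 for CENPBD1P. The cause was not tested. Without 1 library the sign also turned for ALKBH5 (-0.0722 to 0.177), CDKN1A (-0.186 to 0.0612), MDM2 (-0.195 to 0.196), METTL14 (-0.0676 to 0.295), MPG (-0.0677 to 0.25), TFE3 (-0.165 to 0.0197), TFEB (-0.0845 to 0.301) and VIM (-0.0525 to 0.0509), none of which passed.

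Of 209 passing genes selected by the naming rule, not all of them printed and examples outside the rule not included, 90 lost the call without at least 1 library, 75 under at least 1 other alternative and 0 with the replicate block, and 2 of 16 that had not passed, MITF and GPNMB, passed with it. Without the files' raw counts the depth behind a value is unknown, and 3 libraries a group limit the precision.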
